A study of Mus musculus with 54 samples.

Results

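Mitochondrial ribosomal protein genes were followed across 54 mouse livers. The set was all genes with a symbol made of Mrpl or Mrps and a digit and a mean of at least 0.5 FPKM over all libraries, where FPKM are fragments per kilobase of transcript and per M (mega) mapped reads. It held 77 of the 18079 genes in the table and 77 of the 11759 genes that passed the same minimum and were tested. Of these, 48 had Mrpl and 29 had Mrps symbols, and no symbol was marked as a pseudogene. Of 78 genes with such a symbol, 1 lay below the minimum: Mrpl23, with a mean of 0.234 FPKM and a range of 0.0779 to 0.464. The genes just inside it were Mrps36 at 1.71 and Mrpl48 at 2.62 FPKM, so no gene lay close to the limit.

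Livers came from female C57BL/6J mice, 8 to 12 weeks old, on normal chow without restriction and a light and dark cycle of 12 h each. Wild-type mice (WT) were compared with mice that lacked BMAL1 (KO) and with mice of the BMAL1-stop-FL line in which BMAL1 was absent but reconstituted in the liver (Liver-RE). BMAL1 pairs with CLOCK to drive the transcription of circadian clock genes. Livers were collected every 4 h from ZT0 to ZT20, with ZT for hours after lights on, and 3 per genotype and time made 18 libraries per genotype. Which driver restores BMAL1 in Liver-RE, and in which liver cells, is not given in the sources used here. Since the labels only number the replicates, p-values measure the spread between these samples, which may be technical.

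Mitochondria translate the few proteins encoded by their own DNA, all of them subunits of the oxidative phosphorylation complexes, on ribosomes of their own. The RNA of these ribosomes is made in the mitochondrion, while every one of their proteins is encoded in the nucleus, made in the cytosol and imported. Many of the proteins descend from bacterial ribosomal proteins, and others were added later in evolution, several of them in place of lost rRNA. The promoters of nuclear genes for mitochondria are known for binding sites of NRF1, of ETS factors such as GABPA and of YY1. Hepatocytes are rich in mitochondria.

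Read depth, inferred from the size of single-read steps, lay between 24.7 and 41.5 M reads per library. Of 10 listed hepatocyte markers 9 were in the table, and their summed level was between 25114 and 70986 FPKM in all livers, with medians of 51341 FPKM in WT, 46725 in Liver-RE and 33949 in KO. The single markers did not all follow the sum. In the test of KO against WT described below, 1 of the 9 was higher and 2 were lower. Of their log2 fold changes 5 were positive and 4 negative, with a median of 0.04. Alb, the albumin gene, took 10.2% ± 1.20 of all FPKM in WT livers, 9.57% ± 1.63 in Liver-RE livers and 4.82% ± 0.920 in KO livers (SD, n = 18). Arntl, which encodes BMAL1, lay between 6.26 and 8.74 FPKM in KO and between 0.350 and 12.1 in WT, so the value for the whole gene does not check the KO label. In 3 libraries, WT ZT8 replicate 2, Liver-RE ZT0 replicate 3 and Liver-RE ZT12 replicate 3, a panel of 13 clock genes ran against the rest of their group. KO ZT0 replicate 2 stood apart in the mitoribosomal genes, as described with the harvest times.

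Promoters of 4 genes are shown, because the genes moved with genotype or time. The sites they hold differ, except that Mrpl9 and Mrpl44 each hold only an NRF1 match. Each is the stretch of the RefSeq window (GRCm38.p6) that lies before the start of the gene in the GENCODE annotation, written 5′ to 3′ on the strand of the gene. Capitals mark CCGGAAG, the core letters bound by ETS factors, and the palindrome bound by NRF1 (GCGCA, any base, GCGC), on either strand.
Mrpl41, chr2:24975099-24975348, minus strand, no match: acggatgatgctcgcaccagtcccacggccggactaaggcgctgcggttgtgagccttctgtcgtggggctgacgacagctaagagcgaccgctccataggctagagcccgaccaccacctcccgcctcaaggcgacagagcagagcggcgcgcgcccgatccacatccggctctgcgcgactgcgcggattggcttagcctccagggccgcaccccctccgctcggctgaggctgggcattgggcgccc
Mrpl17, chr7:105811100-105811337, minus strand, an ETS and an NRF1 match: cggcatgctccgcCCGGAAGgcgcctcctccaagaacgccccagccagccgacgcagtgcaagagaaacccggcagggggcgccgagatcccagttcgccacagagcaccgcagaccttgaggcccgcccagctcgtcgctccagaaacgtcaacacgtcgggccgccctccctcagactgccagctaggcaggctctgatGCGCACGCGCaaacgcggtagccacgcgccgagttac
Mrpl9, chr3:94443086-94443317, plus strand, an NRF1 match: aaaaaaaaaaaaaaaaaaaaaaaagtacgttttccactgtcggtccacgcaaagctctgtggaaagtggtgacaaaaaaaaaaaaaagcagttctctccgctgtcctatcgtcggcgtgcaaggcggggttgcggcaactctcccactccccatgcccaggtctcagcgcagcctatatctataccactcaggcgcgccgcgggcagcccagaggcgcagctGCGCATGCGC
Mrpl44, chr1:79775768-79776017, plus strand, an NRF1 match: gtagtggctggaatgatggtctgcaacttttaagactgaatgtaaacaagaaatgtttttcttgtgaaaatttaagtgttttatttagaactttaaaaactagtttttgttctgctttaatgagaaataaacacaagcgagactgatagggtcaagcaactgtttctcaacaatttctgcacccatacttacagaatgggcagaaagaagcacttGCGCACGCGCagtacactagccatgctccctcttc
Mrpl41 was taken as the gene with the smallest p between KO and WT. The window of Mrps10, which came next, is not shown because the RefSeq start lies 310 bases inside the gene as GENCODE places it. The other genes shown were chosen for their matches after these had been seen. The 4 therefore do not stand for the set, in which 13 of 68 promoter windows (19.1%) held the NRF1 palindrome.

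All 77 genes were above 0 in every library. Their means over the 54 libraries ran from 1.71 to 44.8 FPKM, a scale corrected for transcript length, with a median of 14.9, against a median of 4.86 for all tested genes. The highest levels were those of Mrpl12 at 44.8 FPKM, Mrpl30 at 40.1 and Mrpl52 at 38.6. Mrpl12 forms the flexible stalk of the large subunit that recruits translation factors. The lowest were Mrps36, Mrpl48 and Mrps33, the last with 2.69 FPKM. Mrps36 carries a ribosomal name but is now known as a component of the 2-oxoglutarate dehydrogenase complex. On the log2(FPKM + 1) scale on which all tests were made, the SD over libraries was between 0.146 for Mrps30 and 0.327 for Mrpl34. Despite its symbol, Mrps30 is known to sit in the large subunit.

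The first comparison asked whether loss of BMAL1 changed the mean level over the day. Of the 77 genes, 23 were higher in KO than in WT (29.9%) and 0 were lower, by limma with Benjamini-Hochberg adjustment over all tested genes. Among all tested genes 16.5% were higher and 13.5% were lower. The median log2 fold change was 0.12 over the 77 genes and 0.02 over all tested genes. Of the 77 values 72 were positive, beside 55.5% of those of all tested genes. The differences were small: those past the threshold lay between 0.13 and 0.37 on the log2 scale, with SEs of the 77 genes between 0.04 and 0.10, and 0 genes reached 1.5-fold. At an unadjusted p under 0.05, 37 genes were higher and 0 lower, counts given without the share of all tested genes. Without KO ZT0 replicate 2, 17 of the 23 remained and none was added, beside 15.6% of all tested genes.

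**Figure D1:**
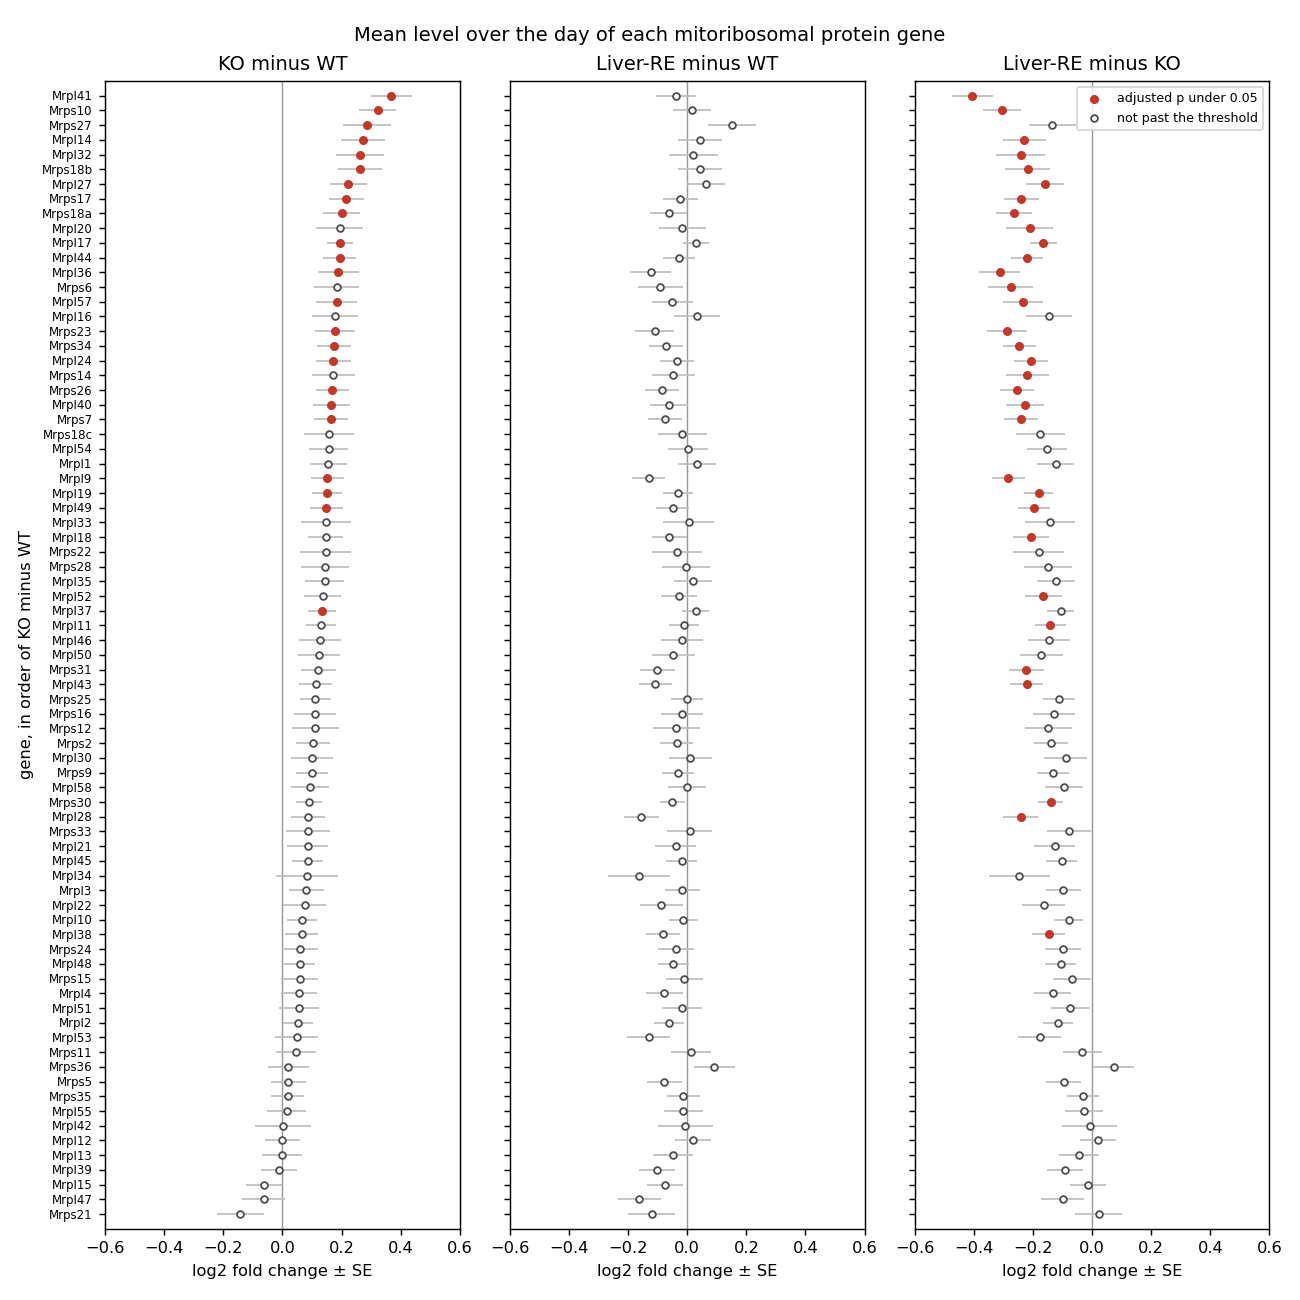
Difference in mean level over the day for each of the 77 genes, as log2 fold change with its SE, in order of KO minus WT. Filled points passed an adjusted p of 0.05: 23 genes in KO against WT, 0 in Liver-RE against WT and 32 in Liver-RE against KO, which share the KO and the WT libraries.

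Mrpl41, a large-subunit protein without a bacterial counterpart (chromosome 2, 24974117 to 24975098, minus strand, GRCm38), differed most. Its lowest, median and highest values were 3.96, 4.94 and 6.37 FPKM in WT, 4.88, 6.85 and 11.2 in KO and 3.14, 4.69 and 6.63 in Liver-RE. Thus 14 of 18 KO livers lay above the highest WT liver, while Liver-RE and WT overlapped. KO livers averaged 6.81 ± 1.38 FPKM, WT livers 5.01 ± 0.692 and Liver-RE livers 4.90 ± 1.02 (SD, n = 18). Mrpl41 was higher in KO than in WT at all 6 harvest times, with a log2 fold change of 0.37 (SE 0.07, limma adjusted p = 3.92e-05). In Liver-RE it was lower than in KO by a log2 fold change of -0.41 (SE 0.07, limma adjusted p = 7.88e-06). The gene starts head to head with Pnpla7, a lysophospholipase gene, which was also higher in KO, with a log2 fold change of 0.47 (limma adjusted p = 0.000961).

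Mrps10, a protein of the small-subunit head (chromosome 17, 47368887 to 47381417, plus strand), came second. Its lowest, median and highest values were 7.10, 9.11 and 12.3 FPKM in WT, 8.65, 11.7 and 16.4 in KO and 6.40, 9.06 and 12.3 in Liver-RE. The groups overlapped, but 17 of 18 KO livers lay above the WT median. Mrps10 was higher in KO at all 6 harvest times, with a log2 fold change of 0.32 against WT (SE 0.06, limma adjusted p = 8.40e-05), and lower in Liver-RE than in KO by -0.31 (SE 0.06, limma adjusted p = 0.000186). The medians of Liver-RE and WT lay close together.

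**Figure D2:**
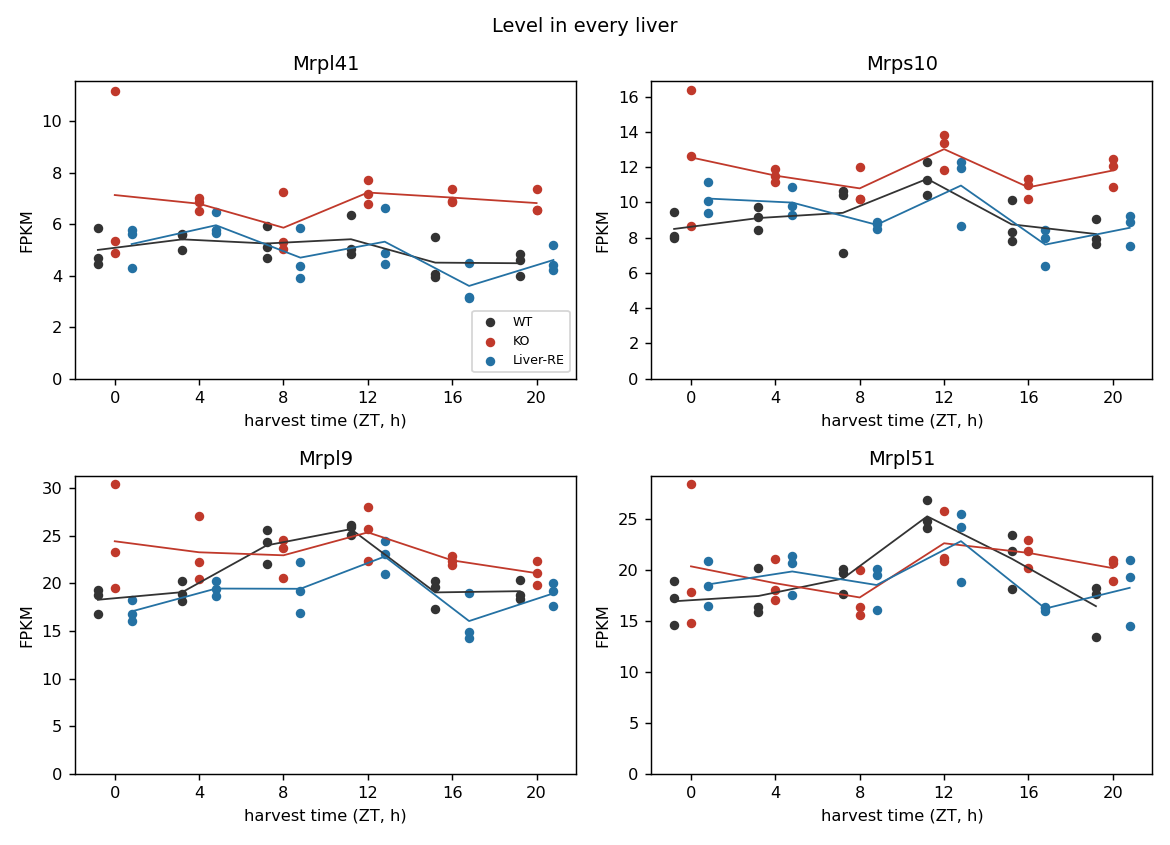
FPKM of Mrpl41, Mrps10, Mrpl9 and Mrpl51 in every liver by harvest time, with lines through the means of 3 livers. Mrpl41 and Mrps10 in KO lie above WT at each time, and Mrpl9 and Mrpl51 rise in WT towards ZT12, to 25.7 and 25.3 FPKM.

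The other genes with the smallest p-values between KO and WT were Mrpl17, Mrpl14, Mrps17 and Mrpl44. Mrpl17 (chromosome 7, 105803206 to 105811099) was low in all livers, with a range of 3.02 to 4.94 FPKM in WT and 4.03 to 7.02 in KO, and all 18 KO livers lay above the WT median. Its log2 fold change was 0.19 (SE 0.05, limma adjusted p = 0.000688). Mrpl14, at the interface of the subunits, averaged 33.4 ± 5.38 FPKM in WT livers and 40.6 ± 6.65 in KO livers (SD, n = 18), a log2 fold change of 0.27. It overlaps Tmem63b on the opposite strand, and whether the authors counted by strand is not given in the sources used here. Mrps17, a small-subunit protein that binds rRNA, had medians of 19.2 FPKM in WT and 22.5 in KO, with 10 of 18 KO livers above the highest WT liver. Mrpl44 (chromosome 1, 79776018 to 79781445), a large-subunit protein with a ribonuclease III fold, ran from 6.86 to 11.8 FPKM in WT and from 9.47 to 12.4 in KO, with a log2 fold change of 0.19 (SE 0.05, limma adjusted p = 0.00506). It overlaps Wdfy1 on the opposite strand, whose own log2 fold change was -0.22 without passing the threshold.

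The genes past the threshold came from both subunits. Of the 50 genes whose proteins sit in the large subunit 15 were higher in KO, with a median log2 fold change of 0.13 over the 50, and of the 27 others 8, with a median of 0.12. These 27 are the genes of small-subunit proteins and Mrps36, which was not past the threshold. Of the 46 genes with a bacterial counterpart 13 were higher, and of the 31 without one 10. The remaining genes past the threshold were Mrps27, Mrpl27, Mrps18b, Mrps18a, Mrpl32, Mrps34, Mrpl19, Mrps26, Mrpl24, Mrpl37, Mrps7, Mrpl9, Mrpl36, Mrps23, Mrpl57, Mrpl49 and Mrpl40. Mrps27, a pentatricopeptide repeat protein of the small subunit, had the largest value among these, 0.29 (SE 0.08). At the other end, Mrps21 had a log2 fold change of -0.14 (SE 0.08, limma adjusted p = 0.179), with 33.4 ± 6.64 FPKM in WT and 30.2 ± 6.00 in KO (SD, n = 18). Mrpl12, the most abundant of the genes, averaged 44.7 ± 6.67 FPKM in WT and 44.7 ± 6.78 in KO (SD, n = 18).

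The second comparison asked how far the livers with restored BMAL1 differed from KO and from WT. It shares the KO livers with the first comparison, so the values of the genes are given side by side and their likeness is not a separate result. Against KO, 0 of the 77 genes were higher in Liver-RE and 32 were lower (41.6%), beside 7.42% higher and 26.7% lower among all tested genes. For 1708 other genes with transcripts under 1200 nt, 5.56% were higher and 29.4% lower, with a median log2 fold change of -0.12. The median log2 fold change was -0.15 over the 77 genes and -0.07 over all tested genes. Of the 77 values 74 were negative, beside 8381 of 11759 for all tested genes. Quantile normalization, under which 12.4% of all tested genes were higher and 14% were lower, left 21 of the 77 genes lower and 0 higher. Without KO ZT0 replicate 2, 27 genes were lower, a count given without the share of all tested genes in that fit.

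Beyond Mrpl41 and Mrps10, the smallest p-values between Liver-RE and KO were those of Mrpl9, Mrpl36, Mrps26 and Mrps23. Mrpl9, a large-subunit protein with a bacterial counterpart, averaged 23.3 ± 2.95 FPKM in KO, 20.9 ± 3.14 in WT and 19.0 ± 2.69 in Liver-RE (SD, n = 18). Its log2 fold change between Liver-RE and KO was -0.28 (SE 0.05, limma adjusted p = 6.42e-05), and 16 of 18 Liver-RE livers lay below the KO median. Mrpl36, among the smallest proteins of the large subunit, had all 18 Liver-RE livers below the KO median of 20.7 FPKM, with a log2 fold change of -0.31. For Mrps26 and Mrps23, both small-subunit proteins without a bacterial counterpart, the values were -0.25 and -0.29. These 4 genes were also higher in KO than in WT, by 0.15 for Mrpl9, 0.19 for Mrpl36, 0.17 for Mrps26 and 0.18 for Mrps23.

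Between Liver-RE and WT, limma called 0 of the 77 genes, in either direction, beside 1.18% higher and 5.88% lower among all tested genes. At an unadjusted p under 0.05 there were 0 higher and 3 lower, counts given without the share of all tested genes. The smallest adjusted p was 0.0903, for Mrpl28. Of the 77 values 58 were negative, beside 8660 of 11759 for all tested genes. The values lay between -0.16 for Mrpl34 and 0.15 for Mrps27, with a median of -0.03, against -0.06 over all tested genes. The median turned to 0.02 with quantile normalization and to 0.01 when libraries were rescaled without the 20 highest genes, so no direction is given. With SEs of up to 0.10, these data do not show that the levels were equal.

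By harvest time, the difference between KO and WT was not even over the day. The median difference over the 77 genes was 0.10 at ZT0, 0.10 at ZT4, -0.09 at ZT8, 0.10 at ZT12, 0.22 at ZT16 and 0.29 at ZT20, on the log2(FPKM + 1) scale of group means of 3 livers. At ZT20, 76 of 77 genes were higher in KO, and at ZT16 72 of 77, while at ZT8 only 15 were. Of all tested genes, 62.4% were higher at ZT20, 59.7% at ZT16 and 36.1% at ZT8, with medians of 0.07, 0.06 and -0.06. The median deviation of the 77 genes from their own means overlapped between livers at ZT8. It lay from -0.16 to 0.08 in KO and 0.02 to 0.04 in WT. At ZT16 and ZT20 every KO liver lay above every WT liver in this value. The same held for the median deviation of 1708 other genes with transcripts under 1200 nt. For these the lowest KO and highest WT values were -0.02 and -0.04 at ZT16 and 0.04 and 0.02 at ZT20. It also held for the genes of cytosolic ribosomal proteins at both times, and for all tested genes at ZT20. With the trend with transcript length removed, the medians of the 77 genes were 0.20 at ZT20, 0.15 at ZT16 and -0.03 at ZT8. Then 70, 63 and 27 genes were higher. Among the 23 genes past the threshold, 5 were higher in KO at all 6 times, and 4 were without KO ZT0 replicate 2. The 23 were picked on the same livers, and the matching share of all tested genes was not counted. The summed level of the 77 genes was 1145 FPKM in WT and 1394 in KO at ZT20, and 1300 in WT and 1209 in KO at ZT8.

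The difference between Liver-RE and KO was largest at ZT16. There all 77 genes were lower in Liver-RE, with a median of -0.40 against -0.12 over all tested genes, and the summed level was 1048 FPKM in Liver-RE, 1407 in KO and 1211 in WT. At ZT20 73 of 77 were lower, with a median of -0.19. Of all tested genes, 32.1% were higher in Liver-RE than in KO at ZT16 and 32.4% at ZT20. With the trend with transcript length removed, the median was -0.25 at ZT16, with 74 genes lower, and -0.11 at ZT20, with 61 lower. At ZT8 40 of 77 were then higher. Of the 32 genes lower in Liver-RE over the day, 25 were lower at all 6 times, and 10 were without KO ZT0 replicate 2. The 32 were picked on the same livers and no share of all tested genes was counted, so this is a description. Between Liver-RE and WT the direction of the group means changed with time. Of the 77 genes 69 were lower in Liver-RE at ZT8 and at ZT16, with medians of -0.14 and -0.17. At ZT20 58 of 77 were higher, with a median of 0.08. The genes share their livers, and their median deviation per liver from their own means overlapped between these groups at ZT8, ZT16 and ZT20. At ZT8 it lay from -0.21 to 0.03 in Liver-RE and 0.02 to 0.04 in WT. At ZT20 it lay from -0.24 to 0.11 in Liver-RE and -0.28 to -0.08 in WT. Of all tested genes, 21.7% were higher in Liver-RE at ZT8, 38.5% at ZT16 and 45.4% at ZT20, with medians of -0.11, -0.07 and -0.02, so at ZT8 most genes lay on the same side. After removal of the trend with transcript length the medians of the 77 genes were -0.04 at ZT8 and -0.09 at ZT16, with 48 and 60 lower, and 0.09 at ZT20. The medians as deposited at ZT0, ZT4 and ZT12 were 0.04, 0.05 and -0.01.

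**Figure D3:**
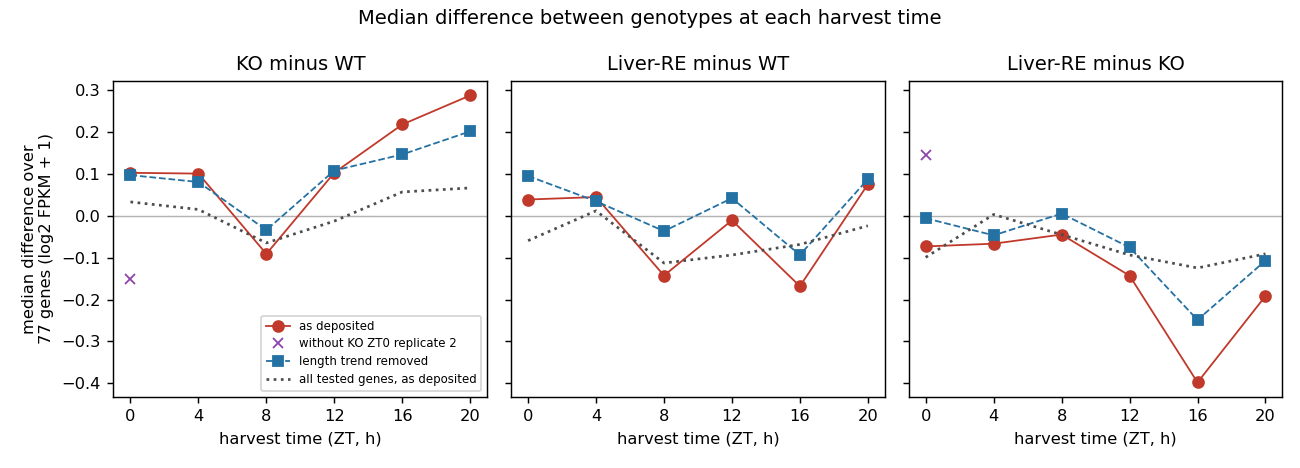
Median over the 77 genes of the difference between genotypes at each harvest time, in log2(FPKM + 1), as deposited, after removal of the trend with transcript length, and at ZT0 without KO ZT0 replicate 2. KO minus WT reaches 0.29 at ZT20 and Liver-RE minus KO reaches -0.40 at ZT16; both medians at ZT0 change sign without that liver.

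At ZT0 the value rests on a single liver. In KO ZT0 replicate 2, 75 of the 77 genes lay above both other livers of the group, with a median fold of 1.63, and 57 had their highest value of all 54 libraries there. Of all tested genes, 58.5% lay above both other livers. Mrpl41, for example, had 11.2 FPKM in that liver and 4.88 and 5.36 in the other livers of the group. Without it, the median difference between KO and WT at ZT0 was -0.15, with 17 of 77 genes higher, and that between Liver-RE and KO was 0.15, with 63 of 77 higher.

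Each library's median deviation of the 77 genes from their own means moved with that of other genes with short transcripts. The median transcript length was 1226 nt for the 77 genes and 2570.5 nt for all tested genes with a length, and 36 of the 77 were under 1200 nt. Among 1708 other genes with transcripts under 1200 nt, 19.3% were higher in KO and 9.43% lower, with a median log2 fold change of 0.07. In KO ZT0 replicate 2 the median deviation was 0.54 for the mitoribosomal genes, 0.37 for the other short transcripts and 0.81 for the genes of cytosolic ribosomal proteins. Over the 18 livers of each genotype, this median averaged 0.09 ± 0.18 in KO, -0.03 ± 0.12 in WT and -0.06 ± 0.16 in Liver-RE for the mitoribosomal genes, and 0.06 ± 0.12, -0.01 ± 0.08 and -0.06 ± 0.11 for the other short transcripts (SD, n = 18). After removal of the trend with length in each library, the means for the mitoribosomal genes were 0.06 ± 0.10, -0.03 ± 0.07 and -0.02 ± 0.09 (SD, n = 18), 28 genes were higher and 1 lower in KO than in WT, and 24 were lower in Liver-RE than in KO. These counts are given without the shares of all tested genes under this setting, so no excess over them is read. The part of RNA quality or library preparation in these differences was not tested.

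**Figure D4:**
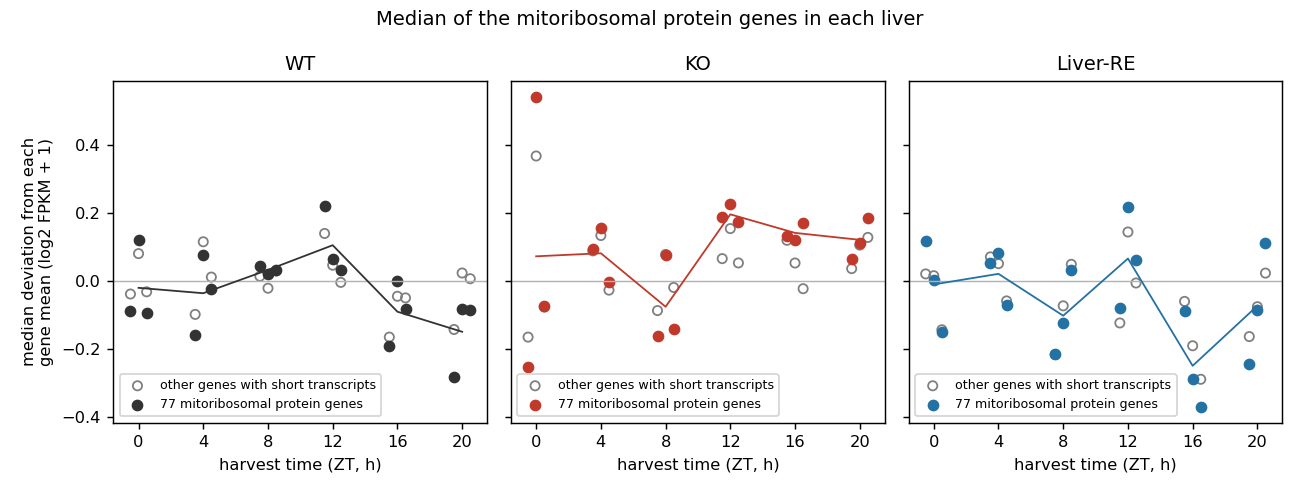
Median deviation of the 77 genes from their own means in each of the 54 livers (filled) and of 1708 other genes with short transcripts (open), in log2(FPKM + 1), with lines through the mean of 3 livers. The 3 KO livers at ZT16 and at ZT20 lie above 0 for the 77 genes, Liver-RE livers at ZT16 lie below 0, and KO ZT0 replicate 2 lies highest, at 0.54.

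Markers of other cells also moved with genotype. All 10 Kupffer cell and macrophage markers were lower in KO than in WT, and each had a mean of at least 0.5 FPKM in every genotype. Their summed level was 242 to 349 FPKM in WT, 144 to 310 in KO and 149 to 351 for Liver-RE, where 5 of the 10 were lower than in WT and 0 differed from KO past the threshold by limma. Of 8 endothelial markers 1 was higher and 1 lower in KO than in WT, and of 8 stellate cell and fibroblast markers 0 were called by limma. Summed cholangiocyte markers ranged from 12.1 to 39.9 FPKM in WT, 14.7 to 76.1 in KO and 8.78 to 21.7 in Liver-RE, a sum carried by few genes, since 2, 3 and 4 of the 5 markers had a mean under 0.5 FPKM there. The part of cell makeup in the differences was not tested, and in bulk tissue fewer cells of a type and less RNA per cell cannot be told apart.

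The third comparison asked which of the genes followed a 24 h cosine. In WT, 12 of the 77 genes were rhythmic by limma (15.6%), below the 23.5% of all tested genes. Fitted peak-to-trough folds were small, between 1.26 and 1.45, with peaks between ZT3.04 and ZT13.4. The smallest p-value belonged to Mrpl9, with 18.3 ± 1.34 FPKM at ZT0, 25.7 ± 0.528 at ZT12 and 19.1 ± 1.57 at ZT16 (SD, n = 3). Every Mrpl9 value at ZT12 lay above every value at ZT0, 4, 16 and 20, and the fold was 1.37 with a peak at ZT10.4 (limma adjusted p = 0.00685). Mrpl51, a large-subunit protein without a bacterial counterpart, rose from 16.9 ± 2.18 FPKM at ZT0 to 25.3 ± 1.39 at ZT12 (SD, n = 3), with a fold of 1.45 and a peak at ZT12.2 (limma adjusted p = 0.00964).

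The other WT rhythms differed in phase. Mrpl44 peaked at ZT3.04, Mrpl27, a protein near the peptidyl transferase centre, at ZT6.38, Mrpl37 at ZT7.01 and Mrps21 at ZT13.4. Their folds were 1.29, 1.36, 1.26 and 1.45. The rest were Mrpl12, Mrpl15, Mrpl18, Mrpl47, Mrps18b and Mrps35. The count rested partly on the 3 WT livers at ZT12: without replicate 1 or 2 of that group 5 genes were called, and without replicate 3 there were 4, namely Mrpl9, Mrpl51, Mrpl37 and Mrpl27, which also passed in the other cases. Without KO ZT0 replicate 2, which enters the shared estimate of the spread, 17 genes were called. The counts with a library left out are given without the share of all tested genes in those fits.

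In KO, 0 of the 77 genes were rhythmic by limma, and so were 0% of all tested genes. At an unadjusted p under 0.05 there were 4, beside 1105 of the 11759 tested genes, and the smallest adjusted p was 0.178, for Mrps27. Mrps27 ran from 7.98 ± 0.826 FPKM at ZT8 to 14.3 ± 1.88 at ZT16 in KO, with no overlap of those groups, and from 8.66 ± 2.63 to 9.37 ± 1.01 in WT (SD, n = 3). Its fitted fold was 1.64 in KO and 1.13 in WT. Mrps31 and Mrpl45, which anchors the ribosome at the inner membrane, had adjusted p-values of 0.435 and 0.438 by limma in KO.

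In Liver-RE, 1 gene was rhythmic, Mrps26 (1.30%), beside 3.82% of all tested genes, and 12 had an unadjusted p under 0.05. Mrps26 fell from 13.5 ± 1.13 FPKM at ZT4 to 9.11 ± 2.01 at ZT16 (SD, n = 3), and every value at ZT4 lay above every value at ZT16. Its fitted fold was 1.35 with a peak at ZT3.42 (limma adjusted p = 0.0458), and 0 genes were called in 17 of the 54 fits that left out 1 library. The gene called also changed. Mrps17 was called in place of Mrps26 when libraries were rescaled without the 20 highest genes and with a mean per group. The same held without the 3 libraries whose clock genes ran against their group, and without Liver-RE ZT0 replicate 3 or ZT20 replicate 3. Of the 12 genes rhythmic in WT, Mrpl9 had a fold of 1.19 in Liver-RE and 1.08 in KO and Mrpl51 1.15 and 1.21, without passing the threshold.

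A difference between rhythms passed the threshold for 0 of the 77 genes in each pair of genotypes by limma. All tested genes had 7.78% for KO against WT, 3.51% for Liver-RE against WT and 0.238% for Liver-RE against KO. At an unadjusted p under 0.05 there were 14, 5 and 12 genes, beside 2892, 2094 and 1460 of the 11759 tested genes. The smallest adjusted p-values for KO against WT were 0.0517 for Mrps27, 0.0560 for Mrps18b and 0.0654 for Mrps30. For Liver-RE against WT they were 0.0952 for Mrps26, 0.154 for Mrps23 and 0.194 for Mrps31, and for Liver-RE against KO 0.219 for Mrps31, 0.267 for Mrpl55 and 0.285 for Mrpl15. A loss of the WT rhythms in KO or in Liver-RE was therefore not shown by these tests.

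The fitted peaks of the 77 genes nevertheless fell at different hours in the 3 genotypes. In WT, 51 of 77 had a fitted peak from ZT6 to before ZT12 (66.2%), beside 32.6% of all tested genes and 30.3% of the other short transcripts. In KO, 60 of 77 peaked from ZT14 to before ZT20 (77.9%), beside 36% and 34.9%. In Liver-RE, 50 of 77 peaked from ZT0 to before ZT6 (64.9%), beside 37.7% and 44.8%. The windows were chosen after the peaks had been seen, the genes share their livers, and most fits did not pass the test, so these counts are a description. Without KO ZT0 replicate 2 the KO count was 50, and after removal of the trend with transcript length the counts were 38, 51 and 37.

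**Figure D5:**
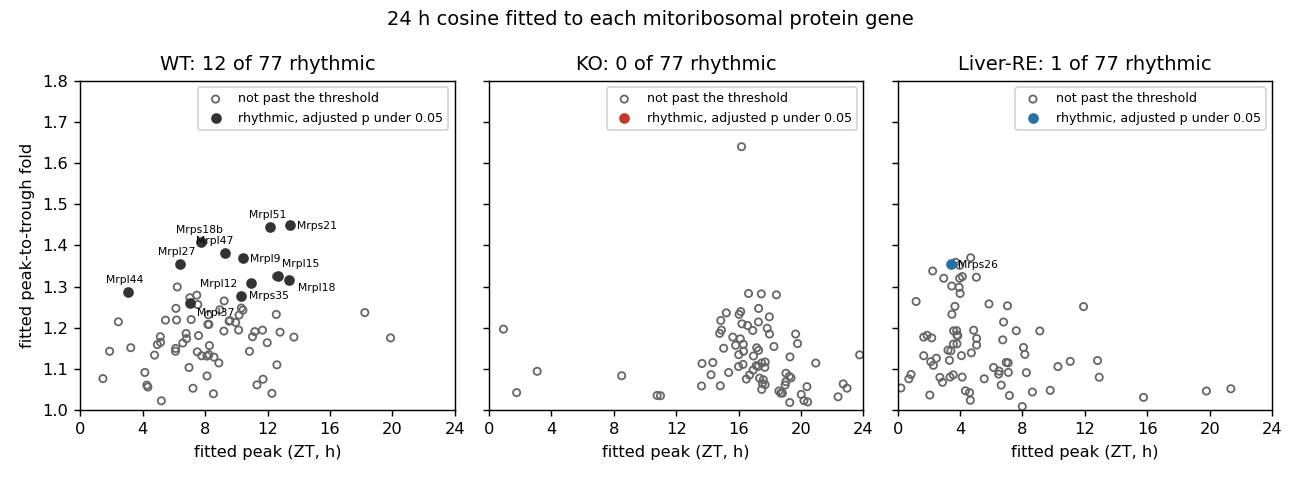
Fitted peak time against fitted peak-to-trough fold of a 24 h cosine for each of the 77 genes in each genotype, with the genes past an adjusted p of 0.05 filled and named. Peaks gather between ZT6 and ZT12 in WT, where 12 genes passed, between ZT14 and ZT20 in KO, where 0 passed, and before ZT6 in Liver-RE, where 1 passed.

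Genes that work with the mitochondrial ribosome were counted in the same tests, in which 16.5% of all tested genes were higher and 13.5% lower in KO than in WT. Of 5 measured ribosomal proteins with other symbols, Dap3, a GTP-binding protein of the small subunit, and Gadd45gip1, a large-subunit protein, were higher in KO than in WT, with log2 fold changes of 0.20 and 0.24 (limma adjusted p = 0.00102 and 0.00807). Aurkaip1, Ptcd3 and Chchd1 had values of 0.14, 0.10 and 0.05 without passing. Of 20 mitochondrial aminoacyl-tRNA synthetases and related enzymes, which charge the tRNAs, 9 were higher and 0 lower, with a median of 0.14. The largest value among these was that of Nars2, which charges tRNA with asparagine, with 6.60 FPKM in KO, 4.70 in WT and 4.97 in Liver-RE and a log2 fold change of 0.41 (SE 0.06, limma adjusted p = 4.45e-08). Cars2, Tars2 and Vars2 had log2 fold changes of 0.30, 0.21 and 0.21. Lars2 spanned 2.65 to 679 FPKM within WT and 4.50 to 3057 within Liver-RE, so its fold change is not read.

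Of 22 assembly and rRNA modification factors, 8 were higher in KO and 0 lower, with a median of 0.09. Mettl15, a methyltransferase for the small-subunit rRNA, had 1.46 FPKM in WT and 2.25 in KO, a log2 fold change of 0.42 (SE 0.06, limma adjusted p = 7.99e-08). Mtg1, a GTPase of large-subunit assembly, and Tfb1m, an rRNA dimethyltransferase, had values of 0.26 and 0.24, and Ngrn, a large-subunit rRNA factor, 0.19. Of the 14 translation factors 3 were higher (21.4%) and 2 lower (14.3%), near the shares of all tested genes. Mtfmt, which formylates the initiator tRNA, Mrrf, the ribosome recycling factor, and Hemk1, which methylates release factors, had values of 0.19, 0.16 and 0.18. The elongation factor Gfm1 fell by 0.19 and the initiation factor Mtif3 fell by 0.15 on the log2 scale.

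Among 17 factors of mitochondrial DNA maintenance, transcription and RNA handling, 2 were higher in KO, Tefm and Elac2, and 1 was lower, Mterf2. Of 10 regulators of nuclear genes for mitochondria, 0 were higher and 1 was lower: Gabpa, an ETS factor, with 14.1 FPKM in WT and 12.7 in KO, fell by 0.13 on the log2 scale (limma adjusted p = 0.0206). Nrf1 and Yy1 had log2 fold changes of -0.05 and -0.05 without passing. For comparison, of 77 measured genes of cytosolic ribosomal proteins, 26 were higher and 1 was lower in KO than in WT, with a median of 0.15, and 55 were lower in Liver-RE than in KO, with a median of -0.26. Against KO in Liver-RE, 11 of the 20 synthetases, 12 of the 22 assembly factors and 5 of the 14 translation factors were lower. These were 55%, 54.5% and 35.7%, while 26.7% of all tested genes were lower and 7.42% higher in Liver-RE than in KO. Gfm1 was the 1 translation factor that was higher there, by 0.21, and none of the 20 and none of the 22 was.

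The 77 genes were spread over 17 chromosomes, with at most 11 on a single one. A head-to-head neighbour, defined as a measured protein-coding gene on the opposite strand with its start within 1000 bases upstream or up to 200 bases inside, was found for 20 (26%) of them and for 10.4% of all measured protein-coding genes. Of these 20 genes, 11 were higher in KO, and of the other 57, 12 were. Of the 20 neighbours, 3 were higher in KO, Pnpla7 beside Mrpl41, Cyb5rl beside Mrpl37 and Eme2 beside Mrps34, and 0 were lower; the share that was higher, 15%, is near the 16.5% of all tested genes. As to overlaps in position, 18 of the 77 genes overlap a measured protein-coding gene on the opposite strand and 3 one on the same strand.

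Promoter windows, from 250 bases before to 50 after the RefSeq start, were found for 68 of the 77 genes and for 9111 tested genes. For 45 of the 68 the start lay within 50 bases of that in GENCODE, and for 22 it lay further inside the gene. Searched on both strands, CCGGAAG was present in 25 of the 68 windows (36.8%) and in 18.9% of all windows. The NRF1 palindrome was in 13 (19.1%) and in 10.8%, and AAGATGGC, the core bound by YY1, in 12 (17.6%) and in 4.93%. At least 1 of these 3 was in 42 windows (61.8%) and in 30.7% of all. The E-box CACGTG, the site of the BMAL1 and CLOCK pair, was in 5 (7.35%) and in 10.7%. Among the genes higher in KO, 16 of 21 windows held at least 1 of the first 3 sites, and among the other genes 26 of 47, while the E-box was in 2 of 21 and 3 of 47. These matches describe the windows and do not show binding.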

How the data were processed

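RNA-seq libraries from 54 livers were stranded and made from total RNA depleted of ribosomal RNA, per the labels' protocols. CASAVA 1.8.2 and mm10 appear, without a role, in the notes on processing by the submitters; how reads were aligned and counted, and with which annotation, is not given in the sources used here. For every gene and library the authors deposited 1 value, with no unit named. The deposited values were taken as FPKM, since their smallest steps scaled with transcript length: the share of low values at the most frequent step was 13.7% ± 1.74 with length and 3.20% ± 0.283 without (SD, n = 54). TPM of a longer gene list, later shortened, would show the same steps; the levels and the depth below would then be relative values only. The estimated depth was 32.5, 30.5 and 30.5 M reads on average in WT, KO and Liver-RE.

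Values were analysed as log2(FPKM + 1), a pseudocount of 1, on 11759 genes whose mean reached 0.5; fold changes on this scale understate low genes. One limma 3.58.1 model (R 4.3.3) gave each genotype its own mean and its own 24 h cosine and sine terms, with Benjamini-Hochberg adjustment over all genes tested and a threshold of 0.05. Functions were checked on simulated data. The members, gene lists and tests were chosen with earlier results of these data known. Named were, per test and direction, up to 6 members with the smallest p past the threshold, or 3 where none passed, the members with extreme levels and SDs, and up to 4 genes per other list; Elac2, Mterf2, Hemk1, Nrf1, Yy1, Lars2 and the members listed by name alone were added after their values were seen. Settings varied were a block for the replicate number, quantile normalization, a pseudocount of 0.1, dropping the filter, rescaling without the 20 highest genes, fits of only the genotypes concerned, robust empirical Bayes, a mean per group, and each library left out. Removal of a length trend, by a spline per library, leaving out the 3 libraries whose clock genes ran against their group, and leaving KO ZT0 replicate 2 out of counts over harvest times were added after the data were seen. Positions are from GENCODE and promoters from RefSeq, both on GRCm38. Pandas 2.3.3, numpy 2.4.6 and matplotlib 3.10.9 (Python 3.11.15) were also used.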

Additional observations from a re-analysis of the deposited data

Results flagged for a closer look

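For 5 genes named above, all 3 Liver-RE livers lay above the WT mean at one harvest time and all 3 below it at another. This rule was applied only to the genes with the smallest p-values in the level comparisons and to the median of the 77 genes. Each harvest time and each pair of genotypes was tried. How many of the other tested genes meet the rule was not counted, so the list is a description. The difference between those times was not tested pair by pair. Mrpl17 was 0.30 higher in Liver-RE at ZT20 and -0.10 at ZT8, on the log2(FPKM + 1) scale. Mrps10 was 0.24 higher at ZT0 and -0.18 at ZT16. Mrps17 was 0.16 higher at ZT4 and -0.25 at ZT16. Mrps23 was 0.20 higher at ZT4 and -0.47 at ZT16, and Mrps26 0.20 higher at ZT4 and -0.33 at ZT16. The test of a difference in the 24 h rhythm between Liver-RE and WT was passed by none of the 5. Their smallest limma adjusted p was 0.0952, for Mrps26. Of all 77 genes 5 had an unadjusted p under 0.05 by limma, beside 2094 of the 11759 tested genes.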

How the results depend on the processing

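The 23 genes higher in KO than in WT all remained under the settings varied that kept the samples and, further, after removal of the length trend, with 27 called under the replicate block, and leaving out 1 library gave 17 to 30, the lowest without KO ZT0 replicate 2 and the highest without KO ZT0 replicate 1. Mrps21 was called lower, so that the count of lower genes was 1, under quantile normalization, under rescaling and after removal of the length trend. Genes lower in Liver-RE than in KO numbered 32, 34 under the replicate block, 21 with quantile normalization and 27 to 46 with 1 library left out, again the lowest without KO ZT0 replicate 2 and the highest without KO ZT0 replicate 1. For Liver-RE against WT, 0 to 1 were lower, the 1 being Mrpl28 without Liver-RE ZT12 replicate 2. WT rhythms numbered 12, 13 under the replicate block and 4 to 17 with 1 library left out. Liver-RE rhythms numbered 1, 2 under the replicate block (Mrps17 and Mrps26) and after removal of the length trend, 0 without a filter, 0 with quantile normalization, 0 in the fit of only that genotype, and 0 to 3 with 1 library left out, the 3 without Liver-RE ZT12 replicate 2. Rhythm differences between KO and WT numbered 0, 3 under the replicate block (Mrps18b, Mrps27 and Mrps30), 2 under rescaling (Mrps18b and Mrps27), 1 with quantile normalization (Mrps30), 1 in the fit of only these genotypes, 1 after removal of the length trend (Mrps18b in both) and 0 to 2 with 1 library left out. For Liver-RE against WT the range was 0 to 1, the 1 being Mrps26 without WT ZT16 replicate 1, and for Liver-RE against KO and rhythms in KO it was 0. The block changed no other call of a count named here. Replicate numbers were not taken to pair the livers, since only 34.9% of pairs with the same number had a correlation over 0.1: the mean correlation of deviations was 0.0397 for the same number and -0.0201 for others, while 29 of 54 livers, more than the 18 that 1 in 3 would give, were closest to their own number, a hint from the data and not from the labels. Without the 3 libraries whose clock genes ran against their group, 23 genes were higher in KO, 33 lower in Liver-RE than in KO and 15 rhythmic in WT. The counts by setting in this section are given without the shares of all tested genes in those fits, so no excess over them is read. Of the single values of named genes, 1839 kept their side of the threshold under the settings first chosen, 34 passed it and 39 no longer did. The cause of these changes was not tested. The values hold no counts, so counting error is not included. At a single harvest time, differences of the size seen here lie close to what 1 library can move, as at ZT0. Over the day, leaving out KO ZT0 replicate 2 moved the KO mean of the median deviation from 0.09 to 0.06, and the counts as given above.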
